A study of Mus musculus with 16 samples.

Results

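The comparison described here set the 3 h interferon response of pretreated mouse macrophages against that of naive macrophages, as a difference of differences. For each gene the change over 3 h in naive cells was subtracted from the change over 3 h in pretreated cells, so that a negative value means a smaller change in pretreated cells where both changes were rises. It used 8 of the 16 arrays of the study, those of the array set with the higher array numbers in the sample titles, called set 2 here. The groups were pretreated cells at 3 h (n = 2, replicates 1 and 2), pretreated cells at 0 h (n = 2, replicates 3 and 4), naive cells at 3 h (n = 2, replicates 1 and 2) and naive cells at 0 h (n = 2, replicates 3 and 4). Set 1 held the 0 h replicates 1 and 2 and all 6 h arrays. It was used for values given beside those at 3 h, for a later choice of genes and for the shared estimate of the spread. All cells were macrophages grown from the bone marrow of knock-in mice with an HA tag on histone H3.3, in medium conditioned by L cells, and interferon-gamma was the treatment. The tag was present in every group, and untagged cells were not analysed here. "Pretreated" is the submitters' group name, and a token in the sample titles names earlier interferon. No source used here states the dose or duration of that earlier exposure, or whether a rest followed. No unstimulated cells were sampled at 3 h, so in any change over 3 h the effects of interferon and of handling cannot be told apart. Whether replicates came from different animals or dishes is unstated, and p-values reflect the spread between these arrays alone, which may be technical.

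Interferon-gamma binds a receptor whose Janus kinases start a signal that ends at gamma-activated sites (GAS) in promoters. Among the genes switched on in this way is the transcription factor Irf1, which together with its relatives binds interferon-stimulated response elements (ISRE) in a further wave of genes. In macrophages these genes serve antigen presentation, the recruitment of T cells and the attack on intracellular pathogens, and feedback inhibitors such as Socs1 end the signal.

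Values are log2 intensities of 19938 genes, and every change or difference is on that log2 scale. The value after ± is the standard error (SE) of 1 limma fit to all 16 arrays, in which a mean was fitted for each group within each array set and the spread was shared. Replicate arrays of set 2 correlated across genes at 0.9915 to 0.9938, and their column medians lay between 6.886 and 6.997. All 9 of 9 defining macrophage markers were above a log2 level of 6.5, called the dim limit here, in every group of set 2, and their mean level per array was 12.51 to 12.61. Of 34 markers of other cell types 29 were measured, of which 18 to 23 were under the dim limit depending on the group, and the highest was the B cell gene Cd79b at 8.64 to 8.98. None of the measured markers of either list was called for the difference of responses.

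Pretreatment was followed by smaller rises of interferon genes and by no larger one that passed the test. Of 19938 genes, 16 (0.0802%) differed in their 3 h response at an adjusted p under 0.05 (limma, Benjamini-Hochberg over all genes), and all 16 differences were negative. They ran from -6.07 for the chemokine Cxcl9 to -1.09 for the immunoproteasome subunit Psmb9, with a median of -2.29 and SEs of 0.14 to 0.53. The other 14 genes were BC023105, Iigp1, Gm4951, Ifi205, Acod1, Zbp1, Gbp3, Gm12250, Fcgr4, Ifit2, Irf1, Nlrc5, Tap1 and Tapbpl. At an unadjusted p under 0.05 the limma fit gave 330 genes (1.66%), of which 88 were positive and 242 negative. The smallest adjusted p of a positive difference was 0.642. With 1 of the 8 arrays left out in turn, 8 to 14 genes were called, all of them negative, with 8 when pretreated 3 h replicate 2 was omitted, 9 when it was pretreated 0 h replicate 4, and 10 when it was pretreated 3 h replicate 1 or naive 3 h replicate 2. BC023105, Cxcl9, Gm12250, Gm4951, Ifi205, Iigp1, Tap1 and Zbp1 kept their calls in each of these 8 fits. Of those genes, Tap1 and Zbp1 lost the call when the 8 arrays of set 2 were fitted without set 1. These are bulk samples, so fewer cells of a type and less RNA per cell cannot be told apart.

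The changes that make up the difference were counted on the same genes. In pretreated cells 370 genes rose (1.86% of those tested) and 199 fell (0.998%) over 3 h, and in naive cells 671 rose (3.37%) and 417 fell (2.09%), in all 2.85% of genes in pretreated cells and 5.46% in naive cells. The pretreated and naive changes share no array. Of the rises, 348 were called in both, which is 94.1% of the rises in pretreated cells and 51.9% of those in naive cells. Of the falls, 182 were called in both, which is 91.5% of the falls in pretreated cells and 43.6% of those in naive cells. No gene was called in opposite directions. Most genes called in naive cells alone were not called for the difference itself: of 323 such rises 3 passed that test, beside 0.0802% of all genes, and of 235 such falls none did. The naive change is a part of the difference, so these shares are a description. With pretreated 0 h replicate 4 left out, 178 genes rose and 41 fell in pretreated cells, with pretreated 3 h replicate 1 left out 189 rose and 132 fell, and with pretreated 3 h replicate 2 left out 205 rose and 37 fell. In naive cells 671 rises became 421 and 417 falls became 122 without naive 3 h replicate 2, and with naive 3 h replicate 1, naive 0 h replicate 3 or naive 0 h replicate 4 omitted the falls numbered 205 to 223. The shares called in both rest on these counts.

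**Figure D1:**
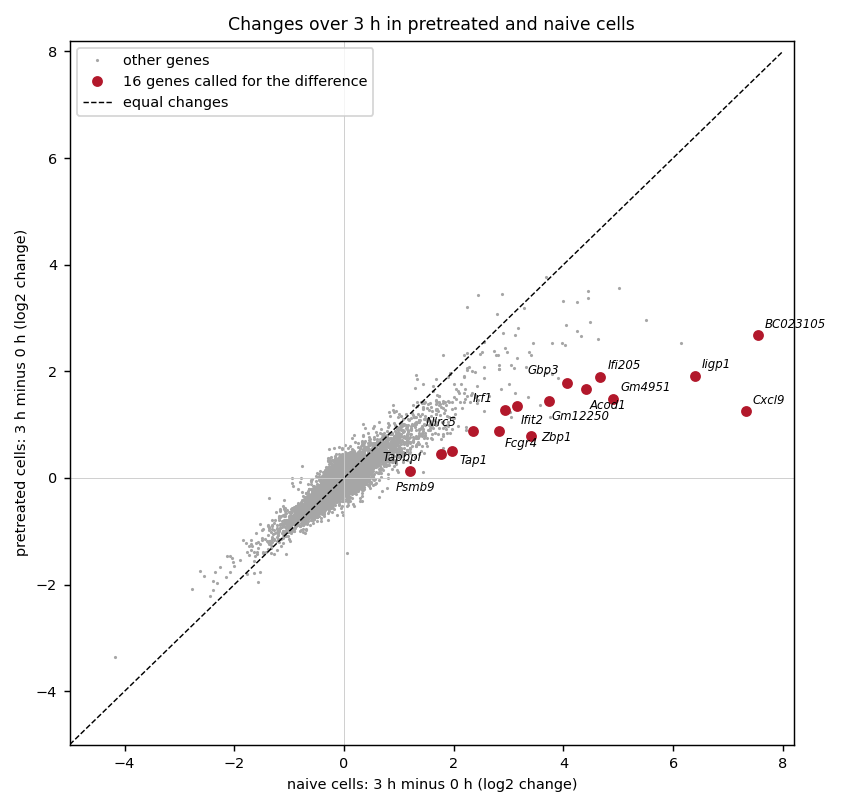
Change over 3 h in pretreated cells (vertical axis, log2) against that in naive cells (horizontal axis, log2) for 19938 genes, with the 16 genes called for the difference in red and equal changes as a dashed line. All 16 lie to the right of zero and below the line, with naive changes of 1.21 to 7.54 and pretreated changes of 0.13 to 2.68.

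On the log2 scale the difference of responses is also the pretreated minus naive gap at 3 h minus the same gap at 0 h. The gaps are therefore parts of the same number and not further evidence, but they part 3 cases: a gene that starts alike and ends higher (faster), a gene that starts higher and ends alike (equal endpoint), and a gene that ends lower (blunted). All 16 genes were higher in pretreated cells at 0 h, by 1.24 to 6.13 with a median of 2.19, in a comparison that called 93 genes (0.466%), 88 of them higher (0.441%) and 5 lower (0.0251%). At 3 h their gaps were -0.59 to 0.77 with a median of 0.17, 11 of them positive and 5 negative, and none passed, in a comparison that called 3 genes (0.015%), 2 higher (0.01%) and 1 lower (0.00502%). For 13 genes the 95% interval of the 3 h gap lay within a 2-fold difference either way, and these are the equal-endpoint genes. For BC023105, Ifi205 and Zbp1 that interval reached past 2-fold, so their endpoint stayed undecided. Of the 16 genes none was faster and none was blunted, and genes not called for the difference were not counted in these classes. With a margin of 1.5-fold in place of 2-fold, 7 genes were equal-endpoint and 9 undecided. With position in the sample titles as a replicate block, a pairing the labels do not give, 24 of 31 called genes were equal-endpoint. The comparison at 3 h called 76 genes in that alternative fit. The number of equal-endpoint genes was 6 with the arrays of set 2 alone. It was 3 without pretreated 3 h replicate 2, 5 without pretreated 3 h replicate 1 or naive 3 h replicate 2, 6 without naive 3 h replicate 1 or pretreated 0 h replicate 4, and 9 to 11 without any other array.

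**Figure D2:**
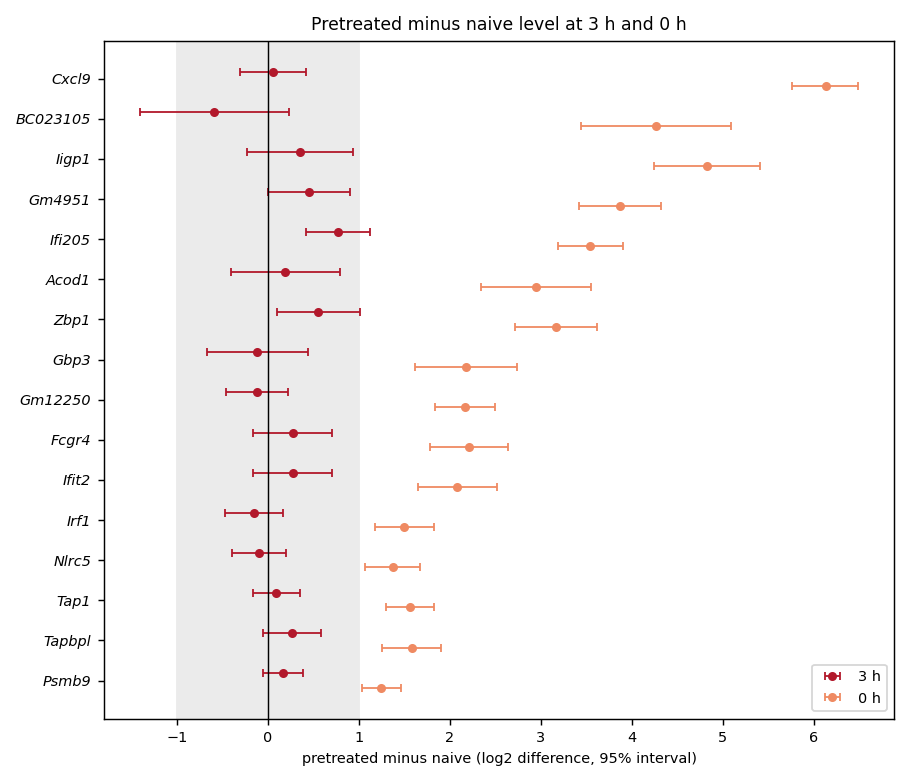
Pretreated minus naive level of the 16 genes (horizontal axis, log2 difference with its 95% interval) at 3 h in red and at 0 h in orange, with the 2-fold margin shaded. The 0 h differences lie between 1.24 and 6.13, and the 3 h differences between -0.59 and 0.77.

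The gap already present at 0 h can be read as a share of the naive rise. It came to 51.2% of the naive log2 rise for Irf1, the lowest of the 16, and to 102.7% for Psmb9, the highest, with a median of 75.7%. The rise that remained in pretreated cells passed the test for 13 genes, and did not for Zbp1, Tapbpl and Psmb9. At 0 h the pretreated arrays lay above the naive arrays without overlap for 16 of 16 genes, beside 24.7% of all genes whose groups lay apart in either direction. At 3 h the groups lay apart for 12 of 16 genes, beside 27.6% of all genes. The highest group mean of any of the 16 genes was 13.47, that of any gene was 14.25, and at 3 h 46 genes in pretreated cells and 71 in naive cells lay above the highest of the 16. The genes were called on these same arrays, so neither count is support of its own. Whether the upper end of the scale limited the 3 h levels was not tested.

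**Figure D3:**
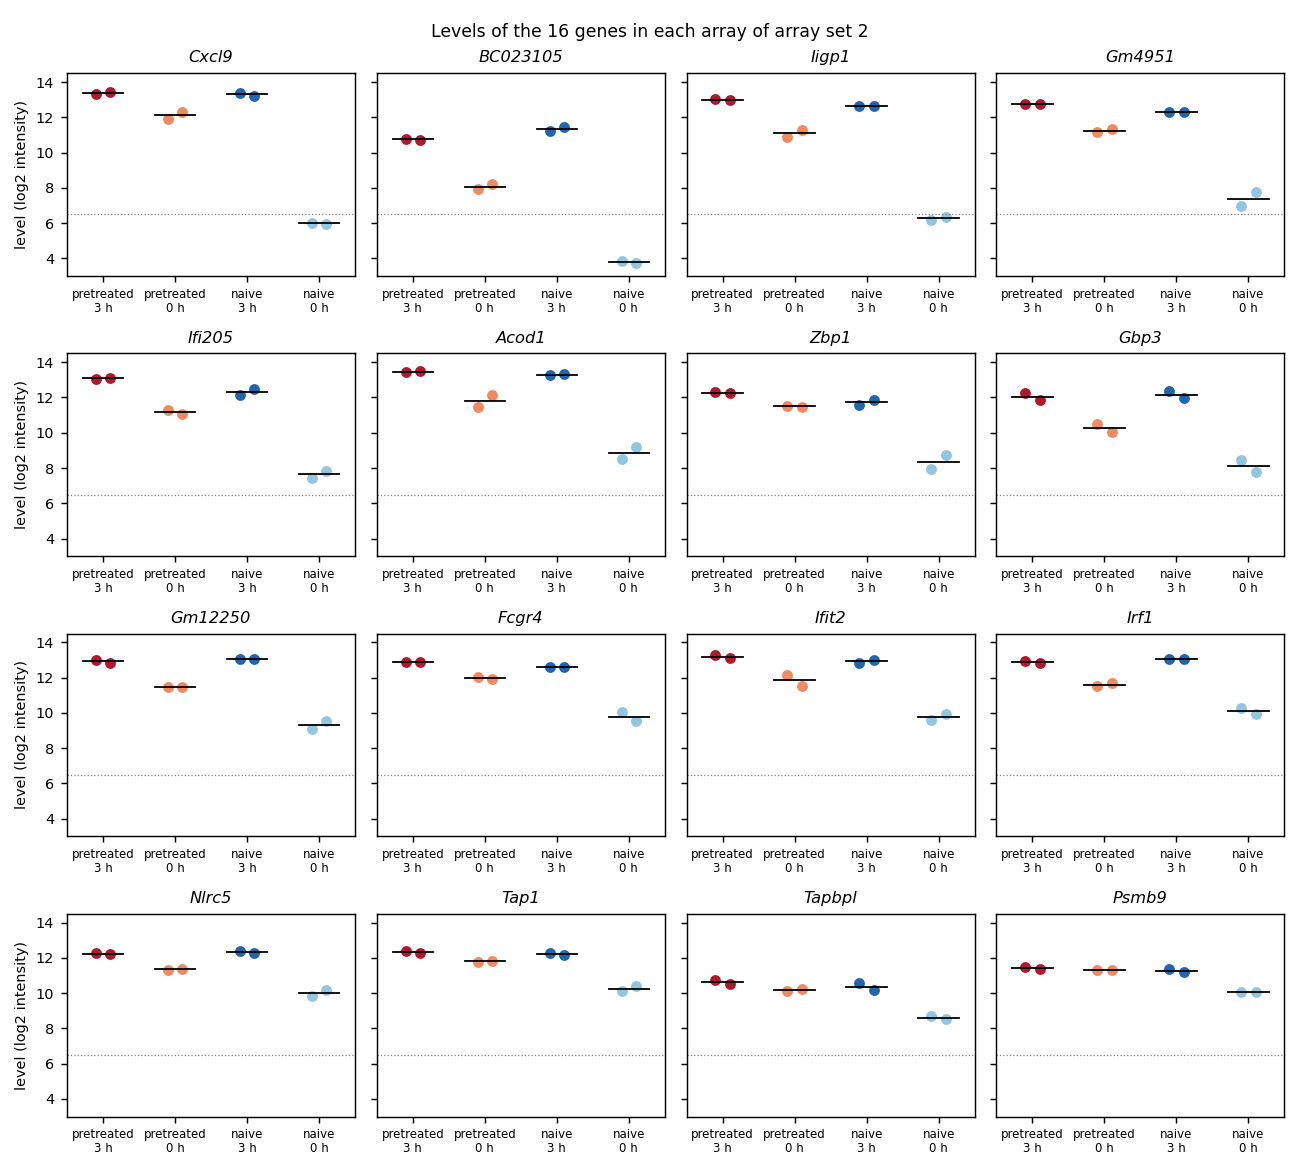
Log2 intensity (vertical axis) of each of the 16 genes in pretreated cells at 3 h and 0 h and in naive cells at 3 h and 0 h, with a point for each of 2 arrays, a line at their mean and a dotted line at the dim limit of 6.5. The naive 0 h arrays are the lowest of the 8 in every panel.

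Irf1, the transcription factor at the head of the ISRE-driven wave, showed the pattern of high start and equal end at moderate size. Its level was 12.93 and 12.85 at 3 h and 11.52 and 11.7 at 0 h in pretreated cells, against 13.03 and 13.04 at 3 h and 10.27 and 9.95 at 0 h in naive cells. The pretreated 3 h arrays were thus slightly below the naive ones, while the pretreated 0 h arrays were well above. The rise was 1.28 ± 0.15 in pretreated cells and 2.93 ± 0.15 in naive cells, that is 2.42-fold and 7.62-fold, and the difference of -1.65 ± 0.21 had an adjusted p of 0.00822. The gap at 3 h was -0.15, with a 95% interval of -0.47 to 0.17. Irf1 lost the call without naive 3 h replicate 2, pretreated 0 h replicate 4 or pretreated 3 h replicate 2, with adjusted p up to 0.0639. A further feature of the array for Irf1 gave -0.88 and was not called.

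Promoter sequence bears on genes that moved together, and for 10 of the 16 genes windows of 300 bases from RefSeq (GRCm38.p6), 250 before to 50 after a gene start, were used here. They were searched on both strands for the GAS letters TTCNNNGAA and the ISRE core, GAAA repeated after any 2 bases, which reads TTTC, any 2 bases and TTTC on the other strand. GAS was found in 3 of the 10 genes (30.0%), beside 9.01% of 15563 measured genes with a window, and the ISRE core in 4 of 10 (40.0%), beside 3.89%. Either was found in 6 of 10 (60.0%), beside 12.3%. Irf1 holds a GAS 90 bases before its start. Gm12250 holds a GAS at 61 bases and ISRE cores at 91 and 46 bases before the start, and Gbp3 has 2 overlapping cores at 45 and 39 bases before it. Ifi205 has a core 134 bases before and another 24 bases after its start, Fcgr4 a core at 73 bases and Ifit2 a GAS at 241 bases before the start. No window of Cxcl9, Acod1, Psmb9 or Tap1 held either, and the windows of Tap1 and Psmb9, neighbours on opposite strands, overlap. A match describes letters in a window and is not a shown binding site. The sequences below show a GAS (Irf1), both motifs (Gm12250), paired ISRE cores (Gbp3 and Ifi205) and, with no match, Cxcl9, which had the largest difference, and capitals mark the matches.
Irf1, chr11:53769764-53770063, plus strand: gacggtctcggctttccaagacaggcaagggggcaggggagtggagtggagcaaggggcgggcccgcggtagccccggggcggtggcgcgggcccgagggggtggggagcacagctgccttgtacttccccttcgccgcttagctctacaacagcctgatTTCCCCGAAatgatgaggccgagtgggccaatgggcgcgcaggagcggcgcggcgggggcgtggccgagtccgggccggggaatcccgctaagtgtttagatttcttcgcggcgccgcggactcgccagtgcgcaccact
Gm12250, chr11:58183593-58183892, plus strand: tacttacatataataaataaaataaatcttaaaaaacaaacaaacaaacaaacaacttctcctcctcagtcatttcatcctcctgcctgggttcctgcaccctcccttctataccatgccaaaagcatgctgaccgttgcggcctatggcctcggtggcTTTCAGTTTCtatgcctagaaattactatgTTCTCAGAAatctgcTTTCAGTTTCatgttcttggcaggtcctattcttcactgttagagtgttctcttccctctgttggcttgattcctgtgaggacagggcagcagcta
Gbp3, chr3:142559794-142560093, plus strand: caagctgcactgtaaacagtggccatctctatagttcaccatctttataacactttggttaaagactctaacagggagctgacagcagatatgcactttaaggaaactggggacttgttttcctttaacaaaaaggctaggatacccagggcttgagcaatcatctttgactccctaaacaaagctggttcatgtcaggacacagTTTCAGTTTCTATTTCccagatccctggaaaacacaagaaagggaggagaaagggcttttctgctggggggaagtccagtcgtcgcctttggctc
Ifi205, chr1:174031706-174032005, minus strand: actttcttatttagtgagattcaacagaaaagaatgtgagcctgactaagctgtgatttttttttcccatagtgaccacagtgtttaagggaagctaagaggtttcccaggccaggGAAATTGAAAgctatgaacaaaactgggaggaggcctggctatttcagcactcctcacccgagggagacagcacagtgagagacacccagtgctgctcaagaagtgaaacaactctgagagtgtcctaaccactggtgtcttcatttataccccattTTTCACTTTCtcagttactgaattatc
Cxcl9, chr5:92328030-92328329, minus strand: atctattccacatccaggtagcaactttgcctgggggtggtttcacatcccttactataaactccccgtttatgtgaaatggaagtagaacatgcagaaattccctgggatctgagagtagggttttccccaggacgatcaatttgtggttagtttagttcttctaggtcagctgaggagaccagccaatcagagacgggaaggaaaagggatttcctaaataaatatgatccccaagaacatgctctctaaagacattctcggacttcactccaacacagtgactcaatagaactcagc

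Cxcl9, a chemokine that draws activated T cells through CXCR3, had the largest difference, and its 0 h gap came to 83.7% of its naive log2 rise. Levels were 13.3 and 13.41 at 3 h and 11.92 and 12.3 at 0 h in pretreated cells, against 13.38 and 13.22 at 3 h and 5.99 and 5.98 at 0 h in naive cells. The 3 h arrays of the groups overlapped, and the naive 0 h arrays stood far below all others. Cxcl9 rose by 1.25 ± 0.17 in pretreated cells and by 7.32 ± 0.17 in naive cells, a difference of -6.07 ± 0.24 (adjusted p = 1.09e-07). Naive cells at 0 h were under the dim limit, so the size of the difference is uncertain, and with every level under 6.5 set to 6.5 it was -5.56. The gap at 3 h was 0.05, with a 95% interval of -0.31 to 0.42. Of 24 measured chemokines, Cxcl9 was the one called, beside 0.0802% of all genes. The median difference over the list was -0.02, beside -0.005 over all genes. Cxcl10, a ligand of the same receptor, had 14.06 and 14.16 at 3 h and 12.33 and 12.13 at 0 h in pretreated cells, against 13.98 and 14.12 at 3 h and 9.62 and 10.66 at 0 h in naive cells. Its difference of -2.03 ± 0.39 did not pass (adjusted p = 0.156), and the naive 0 h arrays differed by over 1 between themselves. It was -2.55 without naive 0 h replicate 4 (adjusted p = 0.00604) and -1.51 without naive 0 h replicate 3 (adjusted p = 0.248).

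Interferon-inducible GTPases, which attack the vacuoles and membranes of intracellular pathogens, had negative differences in every measured member of their list. Of 22 listed genes 11 were measured, of which 3 were called (Iigp1, Gm4951 and Gbp3), beside 0.0802% of all genes, and 8 did not pass. The sign was negative for 11, beside 51.6% of all genes, with a median of -1.73. The list medians of the gaps were 2.18 at 0 h and 0.35 at 3 h. All 11 rose in both pretreated and naive cells. Gm12250, a further called GTPase described below, is not on the list, so these counts leave it out. Iigp1, an immunity-related GTPase, had 13.04 and 12.98 at 3 h and 10.88 and 11.31 at 0 h in pretreated cells, against 12.66 and 12.67 at 3 h and 6.17 and 6.37 at 0 h in naive cells. Both pretreated 3 h arrays lay above both naive ones by a small margin. The rise was 1.92 ± 0.27 in pretreated cells and 6.39 ± 0.27 in naive cells, and the difference of -4.48 ± 0.38 (adjusted p = 0.00025) was -4.25 with levels under 6.5 set to 6.5. Gm4951, for which Ifgga2 is a synonym and which belongs to the same family, had 12.73 and 12.74 at 3 h and 11.15 and 11.33 at 0 h in pretreated cells, against 12.29 and 12.29 at 3 h and 7.0 and 7.75 at 0 h in naive cells. It rose 2.81-fold in pretreated cells and 30.1-fold in naive cells, a difference of -3.42 ± 0.29 (adjusted p = 0.00025). Gm4951, Iigp1 and BC023105, a pseudogene in the RefSeq table, lie near each other on chromosome 18, with 7 genes between the first pair and 1 between the last. BC023105 had 10.8 and 10.7 at 3 h and 7.92 and 8.22 at 0 h in pretreated cells, against 11.23 and 11.45 at 3 h and 3.88 and 3.72 at 0 h in naive cells. Both naive 3 h arrays lay above both pretreated ones, with a gap at 3 h of -0.59 and a 95% interval of -1.41 to 0.23. Its difference was -4.86 ± 0.53 (adjusted p = 0.00281), and -2.16 with levels under 6.5 set to 6.5, because the naive start lay far under the dim limit. Whether probes of these similar genes also bind each other's transcripts was not tested.

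Gbp3, a guanylate-binding protein, had 12.24 and 11.86 at 3 h and 10.49 and 10.06 at 0 h in pretreated cells, against 12.35 and 11.98 at 3 h and 8.43 and 7.76 at 0 h in naive cells. The groups interleaved at 3 h and lay apart at 0 h. Its difference was -2.3 ± 0.36 (adjusted p = 0.0449), and of the 8 arrays left out in turn it kept the call without naive 0 h replicate 3 alone, with adjusted p up to 0.31. Gm12250, for which Irgb10 is a synonym and which acts on bacterial membranes, had 13.01 and 12.83 at 3 h and 11.47 and 11.46 at 0 h in pretreated cells, against 13.05 and 13.03 at 3 h and 9.08 and 9.52 at 0 h in naive cells. It rose 2.74-fold in pretreated cells and 13.4-fold in naive cells, and its difference of -2.29 ± 0.22 (adjusted p = 0.000795) was kept with any of the 8 arrays left out. Other family members did not pass in this fit. Gbp4, Irgm1, Gbp5 and Gbp7 passed in an alternative fit with position in the sample titles as a replicate block, a pairing the labels do not give. Gbp4 had 13.03 and 12.97 at 3 h and 10.4 and 10.53 at 0 h in pretreated cells, against 11.79 and 11.4 at 3 h and 5.59 and 5.3 at 0 h in naive cells. Its difference was -3.62 ± 0.59 (adjusted p = 0.0526), and -2.56 with levels under 6.5 set to 6.5, since naive cells at 0 h were under the dim limit. Its 3 h gap of 1.4, with a 95% interval of 0.5 to 2.31, did not pass over all genes (adjusted p = 0.882). Irgm1 had -1.46 ± 0.24 (adjusted p = 0.0578), Gbp5 -2.54 ± 0.5 (adjusted p = 0.173) and Gbp7 -1.73 ± 0.31 (adjusted p = 0.106). Gbp4, Irgm1 and Gbp7 were chosen after their values were seen.

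Class I antigen presentation had 4 called genes of 16 measured, beside 0.0802% of all genes, with a median of -0.43. The sign was negative for 13 of the 16, beside 51.6% of all genes. The 4 were Nlrc5, the transactivator of class I genes, Tap1, a subunit of the peptide transporter, Tapbpl, an editor of bound peptide, and the immunoproteasome subunit Psmb9. Their naive rises of 2.32-fold to 5.08-fold were smaller than those of the GTPases named above. Nlrc5 had 12.28 and 12.19 at 3 h and 11.33 and 11.39 at 0 h in pretreated cells, against 12.38 and 12.29 at 3 h and 9.81 and 10.17 at 0 h in naive cells. Its rise of 1.84-fold in pretreated cells and 5.08-fold in naive cells gave a difference of -1.47 ± 0.2 (adjusted p = 0.0129). The array carries 19 features for Nlrc5, and all 19 gave a negative difference, from -1.51 to -0.85, of which 9 passed when every feature was tested on its own. They measure the same RNA on the same arrays and are not replicates. Tap1 had 12.37 and 12.25 at 3 h and 11.77 and 11.83 at 0 h in pretreated cells, against 12.27 and 12.16 at 3 h and 10.1 and 10.39 at 0 h in naive cells. The rise was 1.42-fold in pretreated cells and 3.92-fold in naive cells, and the difference of -1.47 ± 0.17 had an adjusted p of 0.00348. Tapbpl had 10.76 and 10.49 at 3 h and 10.11 and 10.25 at 0 h in pretreated cells, against 10.56 and 10.18 at 3 h and 8.7 and 8.51 at 0 h in naive cells, and its difference was -1.32 ± 0.21 (adjusted p = 0.0477). Psmb9, the neighbour of Tap1 on chromosome 17, had 11.5 and 11.37 at 3 h and 11.3 and 11.31 at 0 h in pretreated cells, against 11.34 and 11.21 at 3 h and 10.07 and 10.05 at 0 h in naive cells. At 0 h in pretreated cells Psmb9 lay between the naive 3 h arrays, and its change of 0.13 ± 0.1 in pretreated cells did not pass (adjusted p = 0.65). The rise of 1.21 ± 0.1 in naive cells did, and the difference was -1.09 ± 0.14 (adjusted p = 0.00925). With 1 array left out Tap1 kept its call in every case. Psmb9 lost it without naive 0 h replicate 4, naive 3 h replicate 1, pretreated 0 h replicate 4 or pretreated 3 h replicate 2 (adjusted p up to 0.0803). Nlrc5 kept it without naive 0 h replicate 4 alone (adjusted p up to 0.103 otherwise) and Tapbpl without naive 3 h replicate 2 alone (up to 0.31).

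Genes of nucleic acid sensing and antiviral defence gave 3 called genes from 2 lists. Of 36 measured type I interferon-stimulated genes 2 were called, Zbp1 and Ifit2, beside 0.0802% of all genes, with a median of -0.7. Of 17 p200 family and inflammasome genes Ifi205 was called, with a median of -0.36. The sign was negative for 36 genes of the first list and 13 of the second, beside 51.6% of all genes. Zbp1, a sensor of Z-form nucleic acid that can trigger cell death, had 12.3 and 12.26 at 3 h and 11.51 and 11.48 at 0 h in pretreated cells, against 11.57 and 11.88 at 3 h and 7.92 and 8.73 at 0 h in naive cells. Pretreated cells were above naive cells at both times without overlap, and at 0 h they were already near the naive 3 h level. The rise was 0.79 ± 0.21 (adjusted p = 0.0697) in pretreated cells and 3.4 ± 0.21 in naive cells, a difference of -2.61 ± 0.29 (adjusted p = 0.00312). Ifi205, a p200 family member, had 13.06 and 13.1 at 3 h and 11.27 and 11.09 at 0 h in pretreated cells, against 12.15 and 12.47 at 3 h and 7.43 and 7.85 at 0 h in naive cells. Its 3 h gap of 0.77, with a 95% interval of 0.42 to 1.12, was the largest of the 16, and the difference was -2.77 ± 0.23 (adjusted p = 0.00025). Ifi205 thus rose less and still stood higher at 3 h by its interval, although that gap did not pass over all genes (adjusted p = 0.346). Ifit2, an antiviral protein that binds RNA, had 13.26 and 13.1 at 3 h and 12.17 and 11.51 at 0 h in pretreated cells, against 12.82 and 13.01 at 3 h and 9.58 and 9.92 at 0 h in naive cells. The difference was -1.82 ± 0.29 (adjusted p = 0.0449). It kept the call without pretreated 0 h replicate 4 alone, with adjusted p up to 0.31 without any other array. Its relative Ifit1 had -1.3 ± 0.37 and the antiviral GTPase Mx1 -1.2 ± 0.69 (adjusted p = 1.0 for both).

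Effector genes added Acod1 and Fcgr4. Acod1, the enzyme that makes itaconate, had 13.44 and 13.5 at 3 h and 11.48 and 12.14 at 0 h in pretreated cells, against 13.25 and 13.31 at 3 h and 8.5 and 9.22 at 0 h in naive cells. Replicates differed more from each other at 0 h than the groups did at 3 h. It rose 3.16-fold in pretreated cells and 21.4-fold in naive cells, a difference of -2.76 ± 0.39 (adjusted p = 0.0203). Fcgr4, an activating receptor for IgG, had 12.88 and 12.9 at 3 h and 12.05 and 11.95 at 0 h in pretreated cells, against 12.62 and 12.62 at 3 h and 10.04 and 9.54 at 0 h in naive cells. Its rise of 1.85-fold in pretreated cells and 7.11-fold in naive cells gave -1.94 ± 0.28 (adjusted p = 0.0205). Acod1 kept its call without naive 0 h replicate 4 or pretreated 0 h replicate 3 and lost it without any other of the 8 arrays (adjusted p up to 0.128). Fcgr4 kept its call without naive 0 h replicate 3 alone (adjusted p up to 0.13 otherwise). Acod1 was the one call among 26 measured effector and metabolism genes (median -0.02) and Fcgr4 that among 27 Fc receptors, complement genes and lectins (median -0.13). Over all genes 0.0802% were called.

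No measured gene of the signalling chain upstream of Irf1 was called. Of 13 measured genes of the interferon-gamma receptor, JAK kinases and STATs none was called, with differences of -0.9 (Stat2) to 0.18 (Ifngr1, a receptor chain) and a median of -0.19. Of 11 interferon regulatory and Batf factors Irf1 was called, beside 0.0802% of all genes, with a median of -0.23. Irf7, which drives type I interferon genes, had -1.32 ± 0.28 (adjusted p = 0.258) and Batf2 -1.07 ± 0.25 (adjusted p = 0.48). Of 15 feedback inhibitors none was called, with a median of -0.13. Socs1, an inhibitor of Janus kinases, had 11.5 and 11.75 at 3 h and 8.42 and 8.22 at 0 h in pretreated cells, against 11.82 and 11.89 at 3 h and 7.45 and 7.75 at 0 h in naive cells. Its difference of -0.95 ± 0.21 did not pass (adjusted p = 0.316). Socs3, a feedback inhibitor of cytokine receptors, had 10.48 and 10.6 at 3 h and 7.92 and 7.44 at 0 h in pretreated cells, against 11.4 and 11.47 at 3 h and 7.62 and 7.16 at 0 h in naive cells. The groups overlapped at 0 h and lay apart at 3 h, with a 3 h gap of -0.89 and a 95% interval of -1.35 to -0.44. This is the reverse of the called genes' pattern, but neither the gap (adjusted p = 0.474) nor the difference of -1.18 ± 0.29 (adjusted p = 0.613) passed. At 6 h, on the arrays of set 1, the difference for Socs3 was -1.22 (adjusted p = 0.174), and the pretreated minus naive gap of -1.39 ± 0.21 passed (adjusted p = 0.015).

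**Figure D4:**
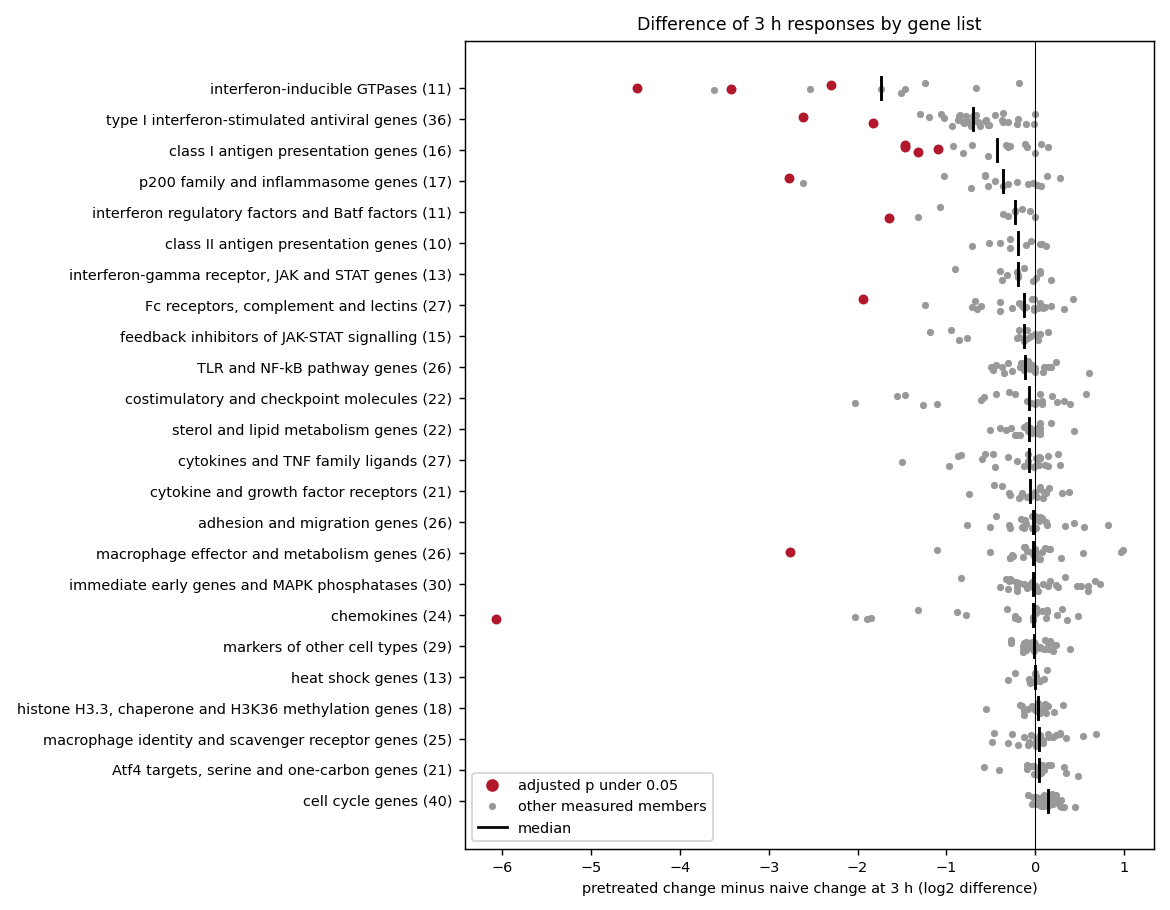
Difference of 3 h responses (horizontal axis, log2, pretreated change minus naive change) for the measured members of 24 gene lists, with called genes in red, other members in grey and the list median as a bar. The 14 red genes belong to 8 lists, and interferon-inducible GTPases have the lowest median at -1.73.

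The remaining lists held no called gene, and their medians lay between -0.19 and 0.14. Class II antigen presentation, with 10 measured genes, had the lowest of these medians beside gap medians of 1.45 at 0 h and 1.16 at 3 h, and 1 of the 10 was called at 0 h. The highest median was that of 40 cell cycle genes at 0.14, with 37 differences not negative, and the changes of that list had medians of -0.39 in pretreated cells and -0.49 in naive cells. Other genes fixed by name are given by value alone. The class II gene H2-Aa spread over several log2 units between replicates, with 12.28 and 10.81 at 3 h and 12.15 and 10.78 at 0 h in pretreated cells, against 9.88 and 5.73 at 3 h and 9.52 and 5.14 at 0 h in naive cells. Its difference of -0.4 ± 1.95 was far smaller than its SE. In each group the array at the earlier title position was the higher, and this fit leaves such a shared shift in the spread. Taken separately within the earlier and the later title positions, a pairing the labels do not give, the difference was -0.24 and -0.55. Ciita, the transactivator of class II, had 0.12 ± 0.76, the checkpoint ligand Cd274 -1.26 ± 0.78, the receptor Cd40 -0.61 ± 0.45 and the cytokine Tnf -0.47 ± 0.92. The prostaglandin synthase Ptgs2 had 0.09 ± 0.7, Fos 0.67 ± 0.47, Egr1 0.09 ± 0.53 and the phosphatase Dusp1 0.59 ± 0.6. Il6 was under the dim limit in all 8 arrays, at 3.23 to 3.43. The adjusted p was 1.0 for each of these 10 genes. For 7 of them (Ciita, Dusp1, Egr1, H2-Aa, Il6, Ptgs2 and Tnf) the sign changed in 1 or more of the alternative fits, which include those with 1 array left out.

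A gain of response was sought among the positive differences, none of which was called. The 4 largest were those of Mtus1, Upp1, Plau and Nos2, and all but Nos2 were chosen after their values were seen, as was S1pr1 below. Upp1, a uridine phosphorylase, had 10.74 and 10.88 at 3 h and 7.07 and 7.67 at 0 h in pretreated cells, against 9.38 and 8.86 at 3 h and 6.68 and 6.66 at 0 h in naive cells. Pretreated cells were higher at both times, and by more at 3 h, where the gap was 1.69 with a 95% interval of 1.11 to 2.27 (adjusted p = 0.134). The rise was 3.44 ± 0.27 in pretreated cells and 2.45 ± 0.27 in naive cells, and the difference of 0.99 ± 0.38 had an adjusted p of 1.0. Nos2, the inducible nitric oxide synthase, had 9.57 and 9.48 at 3 h and 6.38 and 6.25 at 0 h in pretreated cells, against 8.07 and 8.37 at 3 h and 5.89 and 6.06 at 0 h in naive cells. Both groups started under the dim limit and lay apart at 3 h, with a difference of 0.97 ± 0.68 (adjusted p = 1.0). At 6 h, on the arrays of set 1, the differences were -0.37 for Upp1 and -1.07 for Nos2, neither of them called. A smaller fall also gives a positive sign. S1pr1, a receptor that guides cell exit from tissue, had 6.43 and 6.24 at 3 h and 9.71 and 9.65 at 0 h in pretreated cells, against 6.57 and 5.88 at 3 h and 10.4 and 10.39 at 0 h in naive cells. It fell in both groups, by 3.35 in pretreated cells and by 4.17 in naive cells, and the difference of 0.82 ± 0.26 did not pass (adjusted p = 1.0).

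The 3 genes that differed between pretreated and naive cells at 3 h were not called for the difference of responses. In the alternative fit with title position as a replicate block, the comparison at 3 h called 76 genes. Aif1, a calcium-binding protein of macrophages, had 9.79 and 9.73 at 3 h and 9.76 and 9.88 at 0 h in pretreated cells, against 8.15 and 8.4 at 3 h and 7.74 and 8.09 at 0 h in naive cells. The class I gene H2-Q5 had 10.61 and 10.45 at 3 h and 10.24 and 10.36 at 0 h in pretreated cells, against 9.61 and 9.34 at 3 h and 9.32 and 9.08 at 0 h in naive cells. Cbr2, a carbonyl reductase, had 8.19 and 8.11 at 3 h and 8.41 and 8.36 at 0 h in pretreated cells, against 10.45 and 10.75 at 3 h and 10.52 and 10.72 at 0 h in naive cells. Aif1 and H2-Q5 were higher and Cbr2 was lower in pretreated cells at both times. The 2 higher calls at 3 h were sensitive to single arrays: 1 was left without naive 0 h replicate 3, naive 0 h replicate 4 or naive 3 h replicate 2, and 0 with any other of the 8 arrays left out, with arrays centred on the median or with array weights. The 1 lower call was made in each of the 8 fits. Their gaps at 3 h were 1.48 (adjusted p = 0.0387), 1.05 (adjusted p = 0.0407) and -2.45 (adjusted p = 0.000264), in that order, and their differences of responses were -0.42, -0.05 and -0.21 (adjusted p = 1.0 for each).

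Array set 1 holds separate arrays of both groups at 0 h and 6 h, and the same difference was taken there over 6 h. All 16 genes had a negative difference at 6 h, from -5.22 for Cxcl9 to -0.84 for Irf1 with a median of -1.64, and 10 of the 16 were called, in a comparison that called 29 genes (0.145%). Those not called were Gbp3, Fcgr4, Ifit2, Irf1, Nlrc5 and Tapbpl. Over all genes 23 had a negative (0.115%) and 6 a positive call (0.0301%) at 6 h. Without naive 6 h replicate 2 these counts were 98 and 59, and the negative count was 4 without naive 6 h replicate 1, pretreated 6 h replicate 1 or pretreated 6 h replicate 2. It was 5 with naive 0 h replicate 2 omitted and 8 with pretreated 0 h replicate 2 omitted. The 0 h gap in set 1 was positive for all 16 genes and called for 14 (over all genes 0.271% were called, 0.226% higher and 0.0451% lower), with a range of 0.73 to 5.06 and a median of 1.48, and the 6 h gap was -0.83 to 0.14 with a median of -0.1. The gap at 0 h was smaller in set 1 than in set 2 for each of the 16 genes, a comparison that was not tested. The 16 genes were called on set 2, whose 0 h gap is a part of the called difference. This count is therefore not support for a difference between the sets. Whether the difference itself differed between 3 h and 6 h was tested in the same fit. No gene passed (618 did at an unadjusted p under 0.05 in limma), and for the 16 genes the 3 h minus 6 h value ran from -1.18 for BC023105 to 0.01 for Acod1. Since set 2 held every 3 h array and set 1 every 6 h array, time and array set cannot be told apart. For the 16 genes, their choice on set 2 cannot be told apart from these either.

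**Figure D5:**
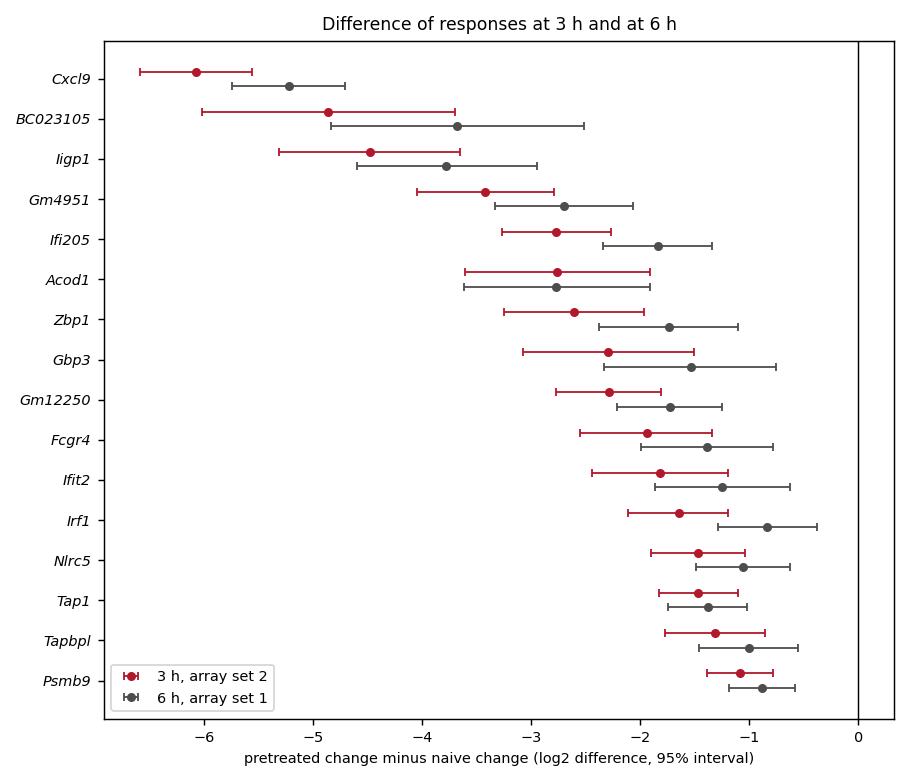
Pretreated change minus naive change of the 16 genes (horizontal axis, log2 difference with its 95% interval) at 3 h on set 2 in red and at 6 h on set 1 in dark grey. All points lie below zero, from -6.07 to -0.84, and the intervals of the 2 times overlap for each gene.

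Genes picked by their changes and gaps in set 1 were then read at 3 h in set 2, a split chosen after the data were seen. The calls behind the pick used the spread shared over the arrays of both sets. The same spread entered the 3 h calls. The reading in set 2 is therefore not fully independent of the pick, and its counts are a description. Of 45 genes higher in pretreated cells at 0 h in set 1, 44 (97.8%) had a negative difference at 3 h, beside 51.6% of all genes, and 14 were called. Their medians in set 2 were 1.76 for the 0 h gap, 0.45 for the 3 h gap and -1.1 for the difference. Of 9 genes lower at 0 h in set 1, 6 had a negative difference and none was called. A negative sign was also common among genes that rose in naive cells by 6 h in set 1 without being higher in pretreated cells at 0 h there. Of 1450 such genes 76.8% were negative, with a median of -0.12, and 2 were called. Of 2161 genes that fell in naive cells by 6 h, 40.2% were negative, with a median of 0.03.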

How the data were processed

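RNA of 16 macrophage samples was measured on microarrays, and the authors deposited 1 value table for the series. Its values are log2 intensities deposited by the authors, and no source used here states their normalization or the tool that made them. The scale was read from the values, whose array medians were 6.886 to 7.226. Of 35557 features, 21789 carry 1 gene symbol in the platform annotation, 1621 several and 12147 none. The first kind gave 19938 genes, and for 999 genes with several features the one with the highest mean was used. The number of arrays limits the precision.

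limma 3.58.1 in R 4.3.3 fitted a mean per group within each array set to 16 arrays (residual df 8, prior df 4.26), and p-values were adjusted over all genes by Benjamini-Hochberg, with calls at 0.05. Summaries used Python 3.11.15, pandas 2.3.3 and numpy 2.4.6. The fit was also run on simulated data with independent noise in each array. Those data lack any deviation shared by title position, so that run does not cover it. Levels under 6.5 count as dim. Named genes were the 10 largest called differences in each direction, up to 8 of each endpoint class, up to 4 called members of each list (together all 16 called genes), and a fixed set of 24 genes, of which 1 is not reported here. Every other gene named, and the setting of levels under 6.5 to 6.5, was chosen after the values were seen. Members and lists were chosen with earlier results of these data known. Array set and the 3 h and 6 h times cannot be told apart. Alternatives covered the arrays fitted, the replicate block, filters, features, scaling, moderation and each array left out.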

Additional observations from a re-analysis of the deposited data

Results flagged for a closer look

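Features of the array without a single gene symbol stand outside the gene comparison and were tested in a fit to all 35557 features. Of 1621 features with several symbols 6 were called for the 3 h difference, with log2 differences of -3.46, -3.42, -3.19, -2.49, -1.96 and -1.53. Of 12147 features with no symbol 3 were called, with -3.17, -2.29 and -1.98. In the same fit 17 of 21789 features with 1 symbol were called. All 9 unnamed features started higher in pretreated cells at 0 h, as the 16 named genes did. For 7 of them the 3 h gap lay within 2-fold, and for those with -2.49 and -2.29 it was undecided. No gene name is given to them here.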

How the results depend on the processing

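No positive call, faster gene or blunted gene arose under any alternative run, and none of the 16 called genes changed sign. Classes were counted only among genes called for the difference, and the 16 were called on these same arrays. Neither statement is therefore support of its own. The number of genes lower for the 3 h difference was 8 with set 2 arrays alone (6 of them among the 16; 0 h lower 2, 3 h higher 1, equal-endpoint 6). With title position as a replicate block it was 31, including all 16. Among the others were Cxcl10 (adjusted p = 0.0408, limma) and the GTPases Gbp4 (0.0494), Gbp5 and Irgm1 (0.0272 each) and Gbp7 (0.0189). In that fit pretreated changes were 622 higher and 650 lower, and naive 973 lower. The 0 h gap gave 186 and 52, and the 3 h gap 33 and 43. Equal-endpoint genes numbered 24, and 7 were in no class, among them Ifi206 and Ccl5, whose 3 h gap was called higher. The labels give no pairing, so the block is not used for the main calls. Deviations of same-position arrays correlated at 0.082 between the pretreated 3 h and pretreated 0 h groups. Between every other pair of groups they correlated at 0.387 to 0.644. Fits without the block leave that shared deviation in the spread. The block in set 2 alone, chosen after seeing the data, gave 18 lower (11 shared), 560 and 544 pretreated, 930 naive lower, 142 and 47 at 0 h, 20 and 16 at 3 h. Every feature on its own gave 27 features of 19 genes, all 16 included (22 equal-endpoint, 5 in no class). Renewed quantile normalization left 1 gene higher at 3 h; median centring 0, with 3 lower at 0 h; array weights 0, with 1 lower at 0 h, 195 and 50 pretreated and 735 naive lower. A margin of 1.5-fold gave 7 equal-endpoint and 9 undecided.

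With each array left out in turn, genes lower for the difference numbered 8 to 14, equal-endpoint 3 to 11 and undecided 3 to 6. Pretreated changes were 178 to 361 higher and 37 to 182 lower, naive 421 to 653 higher and 122 to 417 lower. The 0 h gap gave 60 to 92 higher and 1 to 6 lower, the 3 h gap 0 to 1 higher and 1 to 1 lower, and the 6 h difference 0 to 59 higher and 4 to 98 lower. In the counts with an array left out, undecided means in no class, whether or not the 3 h gap was called. A group left with 1 array was assumed to vary like the others. Of 593 single-gene values 519 kept their side of the threshold, 70 lost a call and 4 gained one. The causes of these shifts were not tested. With 2 arrays per group, and naive 0 h levels of 3 called genes under 6.5, sizes are uncertain and small gains may be missed.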
